A study of Mus musculus with 2 samples.

Results

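Ifitm1, Ifitm2 and Ifitm3, the 3 members chosen by symbol among the 27998 genes of the count tables, were followed through the tissues of mouse inter-limb somite dissections at embryonic day 9.5 (E9.5) and day 11.5 (E11.5). Each stage was 1 droplet single-cell library of C57BL/6 wild type embryos, with the somites of 3 embryos pooled before trypsin dissociation, so no difference between stages has a replicate behind it. The dissected pieces held more than somite cells, and the labels name no sort. Cells with at least 200 and under 6500 detected genes and under 15% mitochondrial UMIs (unique molecular identifiers, counted once per captured RNA molecule) were kept, which left 9851 of 10121 barcodes at E9.5 and 9595 of 10167 at E11.5, with a median of 12462 and 12479 UMIs per cell. The libraries shared 30 barcode sequences.

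The Ifitm genes code for small interferon-induced transmembrane proteins. They sit in the plasma membrane and in endosomes and make membranes harder to fuse, which hinders the entry of enveloped viruses and also the fusion of placental trophoblast cells. In the early embryo Ifitm1 and Ifitm3, also known as fragilis2 and fragilis, have long been used as genes of primordial germ cells, and in muscle the family is of interest because myoblasts must fuse to form fibres.

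The genes are neighbours on chromosome 7 of GRCm38. Ifitm2 (ENSMUSG00000060591) lies at chr7:140954837-140955987 on the minus strand, Ifitm1 (ENSMUSG00000025491) at chr7:140967221-140969825 on the plus strand and Ifitm3 (ENSMUSG00000025492) at chr7:141009586-141010770 on the minus strand. Only 11233 bases part Ifitm2 from Ifitm1, and 39760 bases part Ifitm1 from Ifitm3. Because paralogs can share reads, the last 300 bases of 1 annotated transcript of each were compared, which bears on the counts only if the libraries read the 3′ end, a point not given in the sources used here: no stretch of 30 bases was common to any pair of the 3, and the longest shared run was 27 bases, between Ifitm3 and Ifitm2. The promoters of the neighbours are shown because the genes had different levels in the same cells. They are RefSeq windows on GRCm38.p6, from 250 bases before to 50 bases after the annotated start, read 5′ to 3′ on the gene's own strand. Capitals mark matches, on either strand, to the core of the interferon-stimulated response element (GAAA, any 2 bases, GAAA) and to the interferon-gamma activated site (TTCNNNGAA), which overlap in Ifitm3.
Ifitm1, chr7:140967826-140968125, plus strand: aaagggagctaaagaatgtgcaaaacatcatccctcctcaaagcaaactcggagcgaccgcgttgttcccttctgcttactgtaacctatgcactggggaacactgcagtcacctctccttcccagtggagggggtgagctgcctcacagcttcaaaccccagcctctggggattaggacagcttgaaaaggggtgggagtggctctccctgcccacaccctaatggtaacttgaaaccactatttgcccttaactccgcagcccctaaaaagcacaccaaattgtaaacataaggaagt
Ifitm2, chr7:140955912-140956211, minus strand: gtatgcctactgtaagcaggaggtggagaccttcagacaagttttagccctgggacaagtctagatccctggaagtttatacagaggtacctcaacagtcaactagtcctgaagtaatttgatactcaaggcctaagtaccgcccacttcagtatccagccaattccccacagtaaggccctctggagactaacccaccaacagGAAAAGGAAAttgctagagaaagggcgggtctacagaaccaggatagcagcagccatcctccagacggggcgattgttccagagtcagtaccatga
Ifitm3, chr7:141010695-141010994, minus strand: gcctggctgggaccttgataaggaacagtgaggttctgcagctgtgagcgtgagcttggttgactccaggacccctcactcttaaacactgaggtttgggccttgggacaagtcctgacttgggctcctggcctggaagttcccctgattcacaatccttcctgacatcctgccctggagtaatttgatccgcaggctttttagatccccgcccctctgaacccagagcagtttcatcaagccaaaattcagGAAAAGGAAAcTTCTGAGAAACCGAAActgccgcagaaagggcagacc
The response element core matched 0 times in the Ifitm1 window, 1 time in that of Ifitm2 and 2 times in that of Ifitm3, where 3.44% of 32851 promoters of this length held it. The activated site matched 1 time, in Ifitm3, and was present in 8.30% of promoters. The T-box core AGGTGTGA, searched for because T-box factors pattern the newly formed somite, matched in none of the 3 windows and in 1.28% of promoters. The Ifitm1 window belongs to the RefSeq start, and the annotated gene begins upstream of it. A match is a run of letters and not a binding site.

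Cells were assigned to 12 classes by marker UMIs, and a cell that passed gates of unrelated tissues was set aside. A level is the summed UMIs of a gene in a class per 1000000 UMIs of that class (UPM), with an exact 95% Poisson interval in brackets. Shares of cells carry exact binomial (Clopper-Pearson) intervals where given. All intervals cover counting error only: cells of 1 library are not replicates of a stage, and no p-value was computed. A UMI stands for 1 molecule, so levels of the 3 genes were set side by side without scaling by gene length. The classes held 6927 cells of the E9.5 library and 5805 of the E11.5 library. Genes not used for gating were higher in a class than in the other cells for most classes, for example 10 of 10 checked genes for muscle at E11.5 and 7 of 7 for endothelium at both stages. The somite class at E11.5 was the exception, with 2 of 6 check genes higher and 0 of them by 2-fold, so these 2793 cells are called somite by their gate (at least 2 of Meox1, Meox2, Tcf15, Dmrt2, Uncx and Pax3) alone. The white blood class at E9.5 had 2 cells and was not compared.

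Ifitm2 was the most abundant of the 3 genes in the dissection at both stages. Over all kept cells its level was 236 UPM at E9.5 and 377 UPM at E11.5, from 32907 and 48891 UMIs. Ifitm1 was at 99.6 UPM and 23.9 UPM, and Ifitm3 at 31.4 UPM and 34.7 UPM. The plot of levels by class shows that these totals combine different patterns in different tissues.

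**Figure D1:**
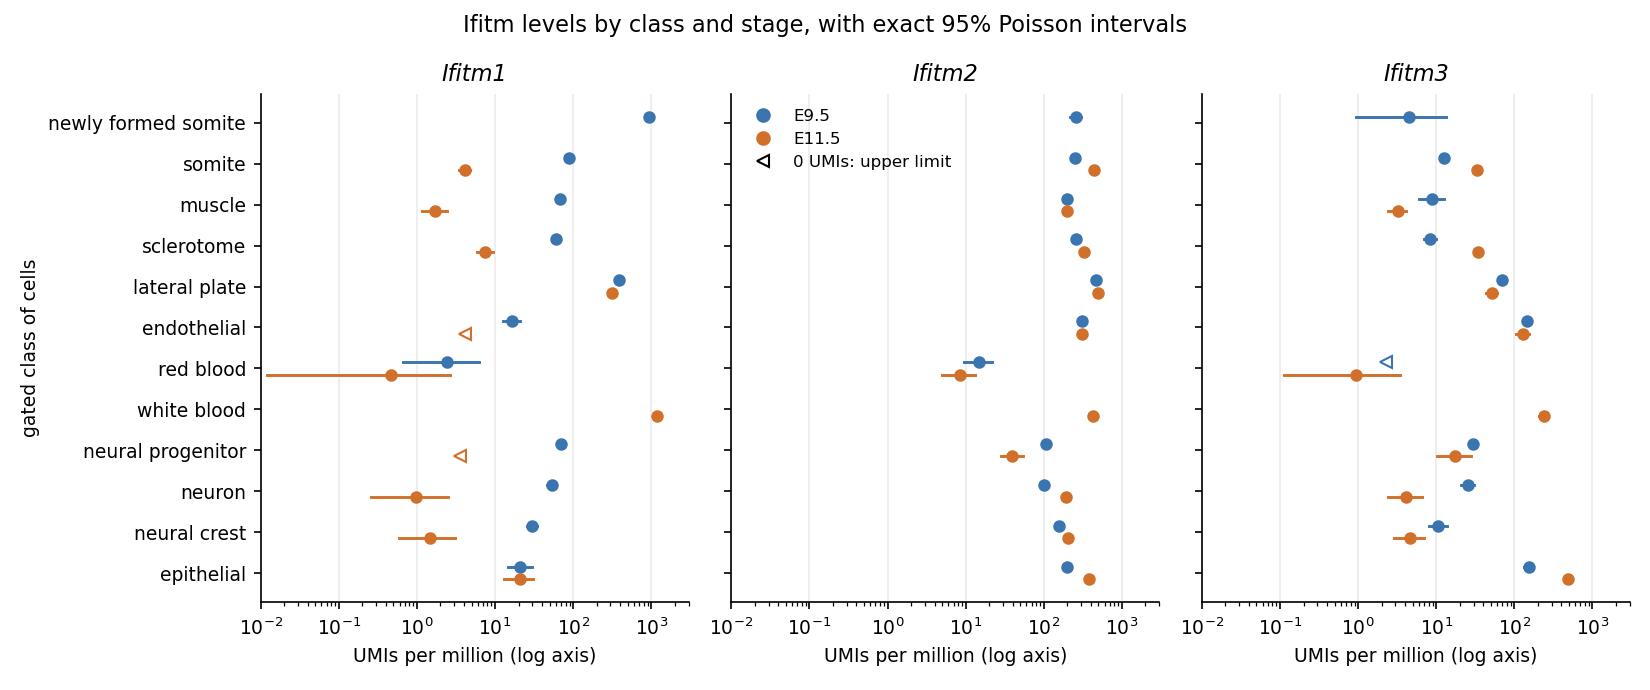
Level of Ifitm1, Ifitm2 and Ifitm3 in UPM (log axis) in each gated class at E9.5 (blue) and E11.5 (orange). Bars are exact 95% Poisson intervals, open triangles are upper limits where 0 UMIs were counted, and no point is drawn for a class without enough cells. Ifitm1 spans from 1188 UPM in E11.5 white blood cells, and 943 UPM in newly formed somite cells, to 0 UMIs in 2 classes at E11.5, whereas Ifitm2 is at most 498 UPM in any class and lowest in red blood and E11.5 neural progenitors.

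Newly formed somite cells were gated on at least 2 of Tbx6, Ripply1, Ripply2, Mesp1, Mesp2, Cer1, Msgn1 and Hes7, genes of the segmenting mesoderm. They were found at E9.5 only (44 cells, and 0 cells at E11.5). That is below the minimum of 50 cells set for a class to give values, so the values of this class are an exception. Ripply2 was detected in 77.3% of these cells, Hes7 in 61.4%, Cer1 in 45.5%, Tbx6 in 31.8% and Msgn1 in 0%. Ifitm1 stood at 943 UPM [870, 1020] in them and was detected in 97.7% of them. Ifitm2 stood at 255 UPM and Ifitm3 at 4.53 UPM, from 3 UMIs. Ifitm1 was thus the leading paralog in this class. Its level was 10.5-fold that of the somite class (log2 3.39 [3.27, 3.52]) and 13.9-fold that of muscle cells of the same library (log2 3.80 [3.58, 4.02]). The log2 ratio of Ifitm2 between newly formed and other somite cells was 0.04 [-0.19, 0.26].

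In the somite class Ifitm1 was 89.7 UPM [86.5, 92.9] at E9.5 and 4.11 UPM [3.50, 4.79] at E11.5, which is 21.8-fold lower (log2 -4.45 [-4.68, -4.22]). Its neighbours went the other way in the same cells. Ifitm2 was 248 UPM at E9.5 and 439 UPM at E11.5 (log2 0.82 [0.79, 0.86]), and Ifitm3 was 12.4 UPM and 33.4 UPM (log2 1.43 [1.27, 1.59]). Counted by cells, 35.3% of the class at E9.5 had an Ifitm1 UMI and 3.97% did at E11.5; when cells were thinned to 5000 UMIs each, they were 22.1% and 1.42% (55 and 39 cells had too few UMIs and were dropped). For Ifitm3 the shares were 13.4% and 33.0%, and 5.84% and 14.7% after thinning. Red blood cells were taken as a class that should lack these genes, to set a background. Whether their UMIs came from free RNA was not tested. Of these cells, 3.67% at E9.5 and 0.820% at E11.5 had an Ifitm1 UMI. Their median depths were 14471 and 16772 UMIs, against 12540 and 13250 UMIs in somite cells. The E11.5 share of somite cells with Ifitm1 was above that of red blood cells, but the intervals, [3.28, 4.77] and [0.0208, 4.48], overlapped. E11.5 neurons, with a lower median depth of 8914 UMIs, had a share of 0.964% [0.263, 2.45], below the somite interval. After thinning to 5000 UMIs the neuron share was 0.608% [0.0737, 2.18], which overlapped that of somite cells, 1.42% [1.01, 1.93].

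Muscle cells, gated on at least 2 UMIs of the myogenic factors Myf5, Myod1, Myog and Myf6, had 172 members at E9.5 and 1018 at E11.5. Ifitm1 was 67.8 UPM [59.5, 76.9] and then 1.72 UPM [1.17, 2.44], or 39.5-fold lower (log2 -5.30 [-5.89, -4.76]). Ifitm2 was 196 UPM and 201 UPM, with a log2 ratio whose interval held 0 (0.03 [-0.08, 0.15]). Ifitm3 was low at both stages, at 8.76 UPM and 3.22 UPM (log2 -1.45 [-2.10, -0.77]). Muscle stood below the somite class at E11.5 in all 3 genes. Somite cells had 2.18-fold more Ifitm2 (log2 1.13 [1.08, 1.18]) and 10.4-fold more Ifitm3 (log2 3.38 [3.0, 3.78]) than muscle cells of that library, and 2.39-fold more Ifitm1 (log2 1.26 [0.70, 1.86]). At E9.5 the same pair differed by 1.32-fold in Ifitm1, 1.26-fold in Ifitm2 and 1.42-fold in Ifitm3, the last with an interval that held 0.

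Sclerotome cells, the precursors of vertebrae and ribs, had the same directions as the somite class. Ifitm1 was 59.9 UPM at E9.5 and 7.54 UPM at E11.5 (log2 -2.99 [-3.35, -2.65]). Ifitm2 was 258 UPM and 329 UPM (log2 0.35 [0.28, 0.42]), and Ifitm3 was 8.37 UPM and 34.3 UPM (log2 2.03 [1.73, 2.35]).

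Lateral plate cells, gated on Foxf1, Hand and Gata genes, held UMIs of the 3 genes together at E9.5. They had 387 UPM of Ifitm1, 465 UPM of Ifitm2 and 69.9 UPM of Ifitm3, and 44.8% of them had UMIs of all 3, against 5.63% of somite cells; at E11.5 all 3 were detected in 10.1% of lateral plate cells. At E11.5 the levels were 313 UPM, 498 UPM and 51.2 UPM. By summed UMIs the stages therefore differed little, with a log2 ratio of -0.30 [-0.42, -0.19] for Ifitm1, 0.10 [0.00, 0.20] for Ifitm2 and -0.45 [-0.74, -0.16] for Ifitm3. The class itself differed in makeup between stages. Foxf1 was detected in 47.6% of its cells at E9.5 and 4.17% at E11.5, when its level was below that of other cells (5.39 and 9.70 UPM). Wt1 was detected in 19.6% and 55.4%. The part of this in the ratios was not tested. The share of cells with an Ifitm1 UMI gave another picture, since it was 78.7% and then 20.8%. At E11.5, 759 of the 813 Ifitm1 UMIs came from 13 of the 168 cells.

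Endothelial cells (273 and 53) had little Ifitm1, at 16.3 UPM at E9.5 and 0 UMIs in 888888 at E11.5. Against a floor of 3 counts in the class that is at least 4.84-fold lower, and 0 of 53 cells with a UMI leaves room for a share of up to 6.72%. Ifitm3 was high at both stages, at 144 UPM [133, 156] and 128 UPM [106, 154], and Ifitm2 was 313 UPM and 308 UPM. Both ratio intervals held 0 (log2 -0.17 [-0.47, 0.12] and -0.02 [-0.21, 0.17]). Against somite cells, endothelial Ifitm3 was 11.6-fold higher at E9.5 and 3.84-fold higher at E11.5.

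Red blood cells were the lowest class for all 3 genes at E9.5. They had 2.45 UPM of Ifitm1, 14.7 UPM of Ifitm2 and 0 UMIs of Ifitm3 at E9.5, and 0.469 UPM, 8.45 UPM and 0.938 UPM at E11.5, the Ifitm1 value from 1 UMI and the Ifitm3 value from 2. White blood cells were at the other end. Their 81 cells at E11.5 had 1188 UPM of Ifitm1, 430 UPM of Ifitm2 and 237 UPM of Ifitm3, the highest summed level of any class (1854 UPM), although 1287 of the 1305 Ifitm1 UMIs came from 4 cells.

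In neural cells pooled over progenitors, neurons and neural crest, Ifitm1 was 60.9 UPM at E9.5 and 1.11 UPM at E11.5, or 55.0-fold lower (log2 -5.78 [-6.79, -4.94]). Ifitm3 was also lower at E11.5, at 26.0 UPM and 5.73 UPM (log2 -2.18 [-2.60, -1.80]), in contrast to somite and sclerotome. Ifitm2 was 114 UPM and 182 UPM (log2 0.67 [0.59, 0.76]). The pooled Ifitm2 value combined opposite differences. In neural progenitors it was 107 UPM at E9.5 and 39.6 UPM at E11.5 (log2 -1.43 [-1.91, -0.98]), while in neurons it was 101 UPM and 191 UPM (log2 0.93 [0.75, 1.10]) and in neural crest 157 UPM and 205 UPM (log2 0.38 [0.25, 0.52]). Progenitors were 1789 of 2431 neural cells at E9.5 and 116 of 766 at E11.5, so the makeup of the pool moved with stage. Ifitm1 was lower at E11.5 in each of these 3 classes: 69.4 UPM and 0 UMIs in progenitors (at least 23.9-fold lower by the 3-count floor), 53.4 UPM and 0.962 UPM in neurons, and 29.8 UPM and 1.47 UPM in crest. Ifitm3 was also lower in all 3, by a log2 ratio of -0.77 in progenitors, -2.64 in neurons and -1.20 in crest.

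Epithelial cells (114 and 77) at E11.5 were the only class in which Ifitm3 led. Ifitm3 was 152 UPM at E9.5 and 490 UPM at E11.5 (log2 1.69 [1.47, 1.91]), Ifitm2 was 201 UPM and 376 UPM (log2 0.90 [0.69, 1.12]), and Ifitm1 was 21.0 UPM and 20.6 UPM (log2 -0.03 [-0.86, 0.78]). Cells that passed no gate (1979 and 3373), with Lix1, Prrx1 and Osr1 among their leading genes at both stages, had 143 UPM and 16.7 UPM of Ifitm1, 355 UPM and 502 UPM of Ifitm2, and 52.0 UPM and 38.3 UPM of Ifitm3.

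Over the 7 main classes, each with at least 50 cells at both stages (somite, muscle, sclerotome, lateral plate, endothelial, red blood, neural), Ifitm1 was lower at E11.5 in 6, with an interval that held 0 in red blood. In endothelium the call came from the 3-count floor, since 0 UMIs at E11.5 gave no ratio interval. Epithelial cells were not among the 7, and their Ifitm1 interval held 0 (log2 -0.03). Ifitm2 was higher in 4 and lower in 0; the fourth was lateral plate (log2 0.10), whose interval held 0 without Scrublet calls, without the highest 5% of Scrublet scores, with no cell filter and after thinning to 5000 UMIs. Ifitm3 was lower in 3 (muscle, lateral plate, neural) and higher in 2 (somite, sclerotome). These counts rest on intervals, for which no share over all genes is given here. A background is given at 2-fold only, from the same ratios over all genes with at least 30 UMIs in a class. At 2-fold, Ifitm1 was lower and Ifitm3 higher in somite, where 5.41% of 13282 genes were lower and 18.4% higher, and in sclerotome, where 4.53% were lower and 15% higher. Ifitm1 and Ifitm3 were lower in muscle, where 4.99% of genes were lower and 16.4% higher, and in neural cells, where 6.42% were lower and 24% higher. Ifitm1 alone was lower in endothelium (4.58% lower, 7.36% higher over all genes). No member passed 2-fold in lateral plate (4.25% lower, 13% higher) or, with 30 UMIs, in red blood cells, where the all-gene share was 50.9% lower and 3.64% higher and the median gene was at log2 -1.02. In the other 6 classes the median gene lay between 0.03 and 0.26.

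Ordered by ratio from the lowest, Ifitm1 was gene 50 of 13282 in somite, 20 of 11708 in muscle, 72 of 11487 in sclerotome and 9 of 12806 in neural cells. In lateral plate it was 2532 of 10106. These positions describe the size of the difference between 2 libraries, not its reliability.

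Within E9.5 the order of classes by Ifitm1 began with lateral plate and somite (newly formed somite cells, under 50, were left out of the order). Neural progenitors, muscle, sclerotome and neurons came next, with no neighbouring pair among them separated beyond counting error. Neural crest, epithelial and endothelial cells were a lower run, again not separated from their neighbours in it, and red blood was last. For Ifitm3 at E9.5, epithelial and endothelial cells led and were not separated, lateral plate was below them, and somite, crest, muscle and sclerotome formed a low run without separated neighbours. At E11.5 the order for Ifitm3 was epithelial, white blood, endothelial, lateral plate. Each was separated from the next beyond counting error, the only error measured. Sclerotome and somite followed, not separated from each other. In white blood, 6 of 81 cells held 142 of the 260 Ifitm3 UMIs, and the rest were at 124 UPM, beside 128 UPM in all endothelial cells. Without cells of at least 10 Ifitm3 UMIs, epithelial cells were at 231 UPM and endothelial cells at 105 UPM. The order of these levels was thus kept, but their separation was not tested.

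The mix of the 3 paralogs, the share each took of their summed UMIs, gives these levels without the class total. Ifitm1 made up 78.4% of the mix in newly formed somite cells, 25.6% in somite cells and 24.8% in muscle at E9.5, but 0.863% and 0.835% in somite and muscle at E11.5. Ifitm2 took 92.1% of the mix in somite and 97.6% in muscle at E11.5. Lateral plate held Ifitm1 at 42.0% at the earlier and 36.3% at the later stage, but at E11.5 from few cells, with 759 of 813 UMIs in 13 of 168; 42.9% of its cells there had Ifitm2 only, against 13.7% at E9.5. Endothelium held Ifitm3 at 30.4% and 29.4%, and epithelium at 40.7% and 55.3%. By cells, Ifitm2 was the only member detected in 47.1% of muscle cells of the E9.5 library and in 76.1% of those of E11.5, and none of the 3 was detected in 8.14% and 17.6%.

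**Figure D2:**
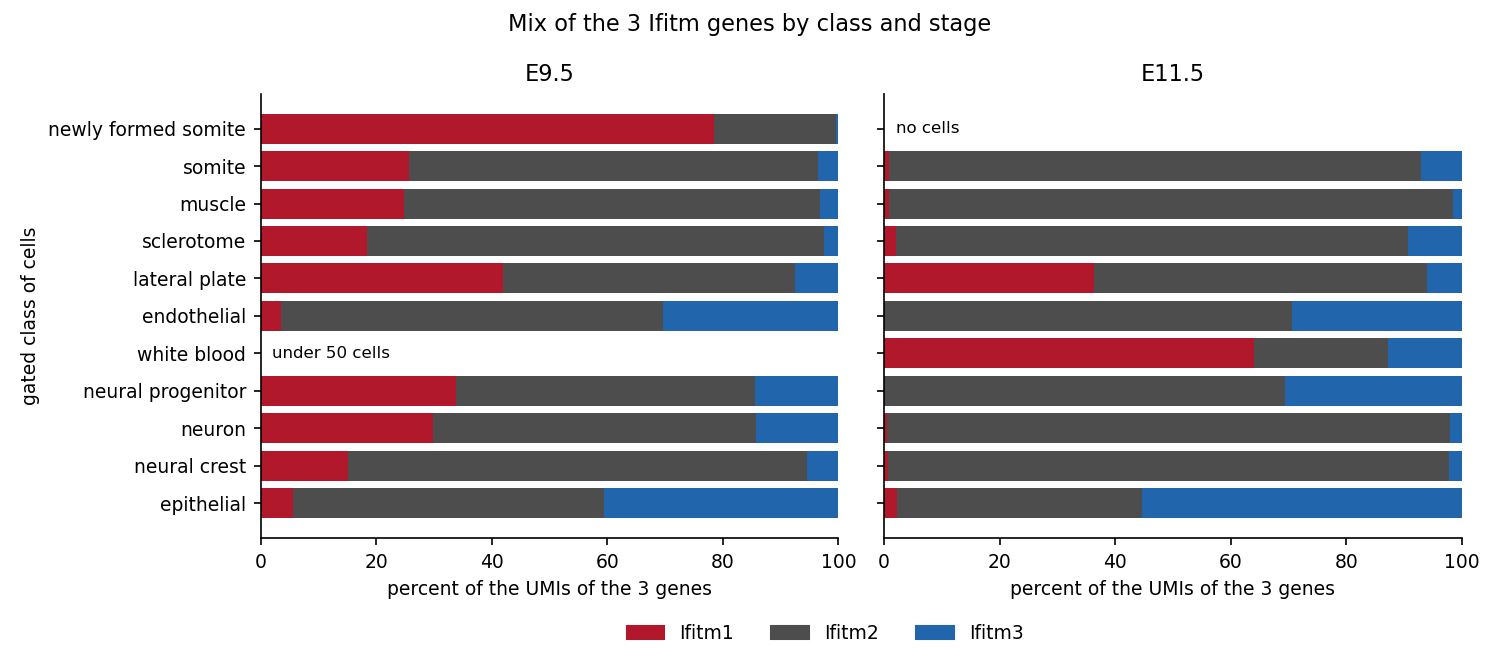
Percent of the summed UMIs of Ifitm1 (red), Ifitm2 (grey) and Ifitm3 (blue) in each class at E9.5 and E11.5; red blood cells, with few UMIs, are left out. Ifitm1 has the largest bar in newly formed somite cells (78.4%) and E11.5 white blood cells (64.1%), and Ifitm3 in E11.5 epithelial cells (55.3%).

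The study asked how Ifitm1 and Myf5, the first myogenic factor to be expressed in the somite, relate at E9.5. The 3641 somitic cells (newly formed, somite, muscle and sclerotome classes) were therefore split in 2 ways. By the number of newly formed somite genes detected, Ifitm1 was 67.6 UPM with 0 genes (3338 cells), 212 UPM with 1 (259 cells), 999 UPM with 2 and 899 UPM with 3 or more (22 cells each). Ifitm2 was between 228 UPM and 289 UPM and Ifitm3 between 3.44 UPM and 11.9 UPM across these bins. The intervals of the end bins overlapped for Ifitm2 and Ifitm3, whereas those of Ifitm1 lay far apart.

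By Myf5 UMIs, Ifitm1 was 94.1 UPM with 0, 85.8 UPM with 1, 64.2 UPM with 2 or 3 and 40.6 UPM with 4 or more (43 cells), a log2 ratio of the last to the first bin of -1.21 [-1.71, -0.76]. Cells with newly formed somite genes raised the first value. Without them the levels were 67.2 UPM, 80.1 UPM, 62.3 UPM and 38.7 UPM, no longer in descending order, and the log2 ratio of the ends was -0.80 [-1.33, -0.31]. Ifitm2 was lower with more Myf5 as well, at 255 UPM, 217 UPM, 189 UPM and 188 UPM in the same cells (log2 -0.44 [-0.67, -0.22]). Depth moved with the split, since in all somitic cells the median was 12516 UMIs with 0 Myf5 UMIs and 22670 with 4 or more. Its part in these ratios was not tested. The study compared Pax3 muscle progenitors, whereas these bins also held sclerotome and other somite cells. Its muscle precursors expressed Ripply2 and Cer1, so the levels without newly formed somite genes leave out cells with those markers. By in situ hybridization the study also saw more Ifitm1 and less Myf5 toward posterior somites.

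**Figure D3:**
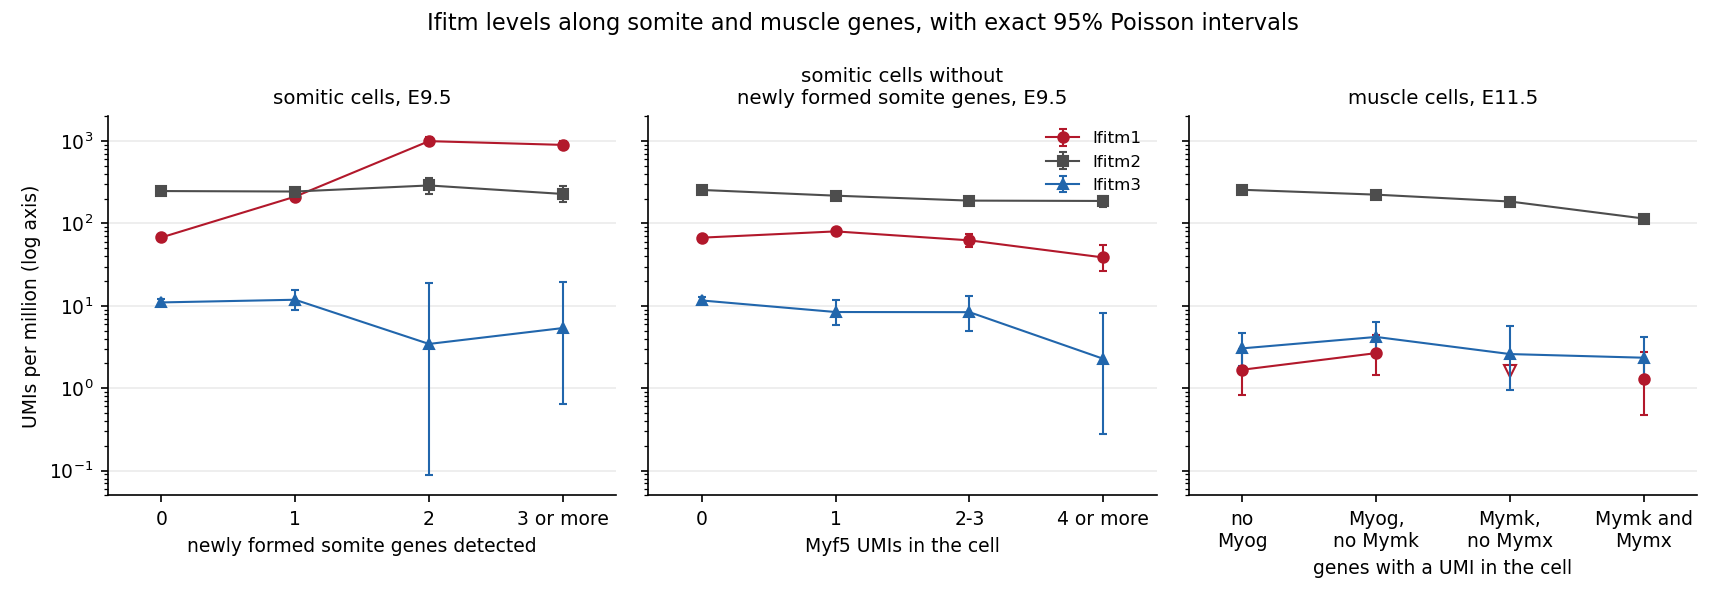
Levels of Ifitm1 (red circles), Ifitm2 (grey squares) and Ifitm3 (blue triangles) in UPM (log axis) with exact 95% Poisson intervals. Left, E9.5 somitic cells by newly formed somite genes detected; middle, E9.5 somitic cells without such genes by Myf5 UMIs; right, E11.5 muscle cells by Myog, Mymk and Mymx, the open triangle being an upper limit for 0 UMIs. Ifitm1 passes Ifitm2 only in cells with 2 or more newly formed somite genes, and Ifitm2 is lowest, at 114.8 UPM, in muscle cells with both fusion genes.

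At E11.5 the muscle cells were split by Myog, which drives differentiation, and by the fusion genes Mymk (myomaker) and Mymx (myomixer). Ifitm2 was 256 UPM [244, 269] in the 374 cells without Myog, 224 UPM [211, 237] in 301 cells with Myog but no Mymk, 185 UPM [168, 203] in 131 cells with Mymk but no Mymx and 114.8 UPM [105, 125] in 254 cells with both. Of the cells without Myog, 42 had Mymk and so stand in 2 groups. Without them the first level was 256 UPM, in 332 cells. The 42 cells were at 256 UPM (202 Ifitm2 UMIs), above the levels of the groups with Mymk, in which they were kept. Their part in those levels was not tested. The Ifitm2 level thus descended across the groups in the order listed, which came from the split and is not the study's order. By lineage tracing the study derived its state with Mymk only (Mc2) from its state with both genes (Mc1). Taken in that direction, the last step goes from 114.8 UPM to 185 UPM, although these groups are not the study's clusters. Between the first and the last group Ifitm2 was 2.23-fold lower (log2 -1.16 [-1.30, -1.02], and -1.16 with the 42 cells left out of the first group only). Cells with Mymk but no Mymx had 1.61-fold more than cells with both (log2 0.69 [0.50, 0.87]), with the 42 cells left in these groups. The share of cells with an Ifitm2 UMI was 94.4%, 87.4%, 74.8% and 65.4% in the same order, with median depths between 16171.5 and 17277 UMIs. Ifitm1 was between 0 and 2.67 UPM and Ifitm3 between 2.34 UPM and 4.19 UPM in these groups, with overlapping intervals. The group with Myog but no Mymk was not free of Mymx, since only part of its 301 cells had neither fusion gene. In that part, Ifitm2 was 235 UPM with 1 to 4 Myog UMIs (168 cells) and 242 UPM with 5 or more (74 cells), with overlapping intervals. The fusion genes themselves were at 5.93 UPM (Mymk) and 7.63 UPM (Mymx) in muscle at E9.5 and at 126 UPM and 200 UPM at E11.5.

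Because the high Ifitm1 cells of the E9.5 somite class were led by Hoxc9 and Hoxa9, genes of the posterior trunk, cells were also split by the summed UMIs of the Hox genes of groups 9 to 13. This split was chosen after values had been seen and is given as a description. In E9.5 somitic cells Ifitm1 was 16.5 UPM with 0 such UMIs (2211 cells), 75.9 UPM with 1, 140 UPM with 2 or 3 and 245 UPM with 4 or more (693 cells), a 14.8-fold range. Ifitm2 was between 238 UPM and 267 UPM and Ifitm3 between 9.67 UPM and 13.8 UPM over the same bins. Without the cells that had newly formed somite genes, the Ifitm1 levels still ascended, at 16.1 UPM, 56.8 UPM, 114 UPM and 187 UPM.

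Other E9.5 tissues had a difference of the same direction. Ifitm1 was 16.3 UPM with 0 and 160 UPM with 4 or more Hox UMIs in sclerotome, 15.4 UPM and 112 UPM in neural progenitors, 12.8 UPM and 39.7 UPM in neural crest and 203 UPM and 454 UPM in lateral plate. Ifitm3 differed likewise in neural progenitors (15.7 UPM and 37.5 UPM) and lateral plate (31.0 UPM and 79.8 UPM), whereas in sclerotome it was 7.04 UPM and 9.32 UPM with overlapping intervals. Ifitm2 was at most 1.32-fold higher with 4 or more in these classes. In neural crest it was lower, at 180 UPM with 0 and 142 UPM with 4 or more (log2 -0.34 [-0.57, -0.11]). In E11.5 somitic cells the range of Ifitm1 was small, at 2.72 UPM with 0 and 4.65 UPM with 4 or more, and not in order between them (6.17 UPM and 2.96 UPM). In E11.5 lateral plate the summed level was 966 UPM with 0 (34 cells) and 39.9 UPM with 4 or more (95 cells), values that rest on few cells, since 13 of the 168 cells held 759 of the 813 UMIs and the rest of the class was at 22.8 UPM.

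The stages differed in how many somitic cells had such Hox UMIs, 19.0% having 4 or more at E9.5 and 37.7% at E11.5. Within bins the stage difference in Ifitm1 was 6.09-fold in somitic cells with 0 (log2 -2.61 [-3.04, -2.20]) and 52.7-fold in those with 4 or more (log2 -5.72 [-5.98, -5.47]). Without the cells that had newly formed somite genes, it was 5.83-fold and 40.7-fold. By class it was 6.28-fold and 48.7-fold in somite and 2.39-fold and 25.2-fold in sclerotome. Ifitm3 was higher at E11.5 in every bin of somitic cells, by a log2 ratio between 1.02 and 1.16.

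**Figure D4:**
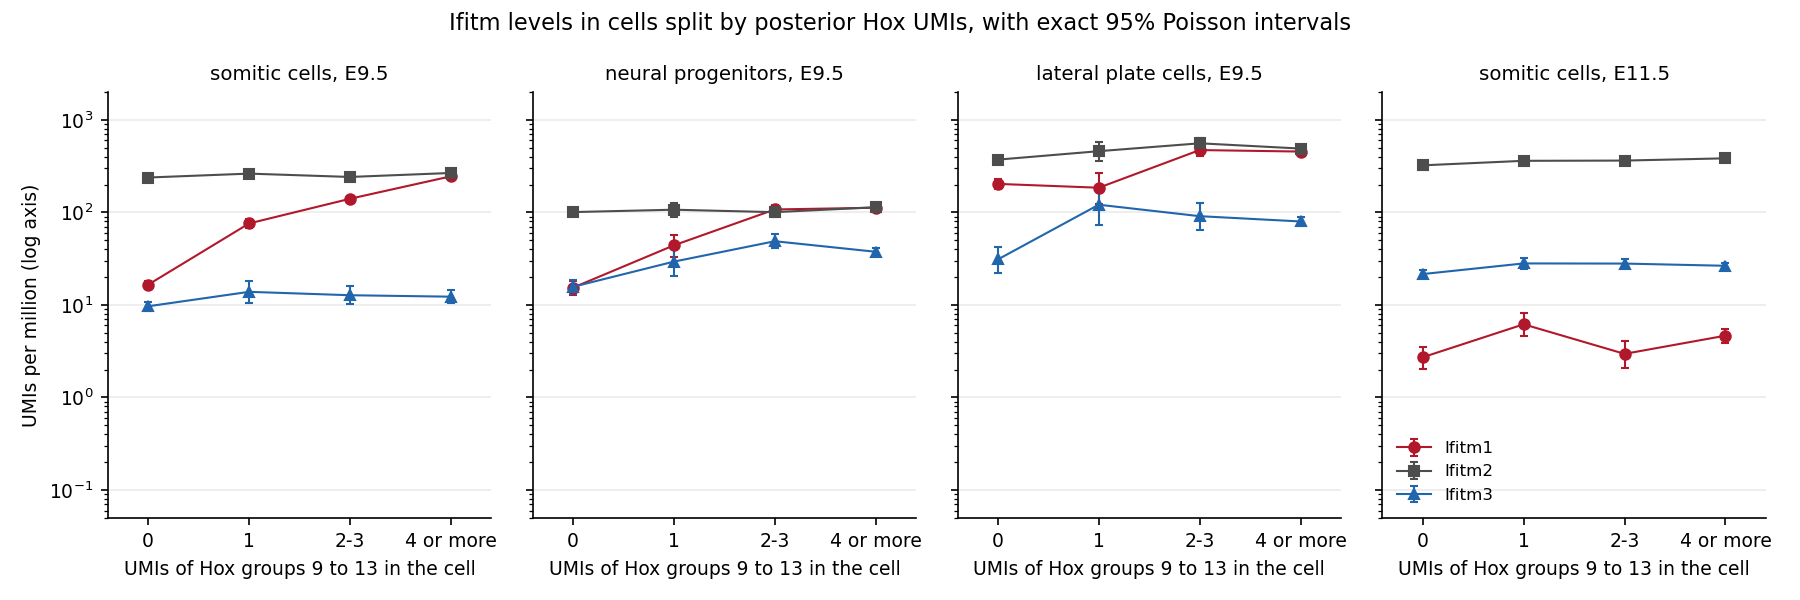
Levels of the 3 genes in UPM (log axis, exact 95% Poisson intervals) in cells binned by their summed UMIs of Hox groups 9 to 13, for E9.5 somitic cells, neural progenitors and lateral plate cells and for E11.5 somitic cells. Ifitm1 climbs from 16.5 UPM to 245 UPM in E9.5 somitic cells while Ifitm2 lies between 238 UPM and 267 UPM, and at E11.5 Ifitm1 is at most 6.17 UPM in any bin.

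Ifitm1 was spread over many cells at E9.5 and held by few at E11.5. At E9.5, 508 cells (5.16% of those kept) held 50% of its UMIs, and at E11.5 only 7 cells (0.0730%) did. For Ifitm2 the numbers were 1893 and 2260 cells, and for Ifitm3 552 and 556 cells. Those neighbours had no such difference in spread. Cells with at least 10 Ifitm1 UMIs numbered 356 in the E9.5 library but 27 in that of E11.5, and the 27 held 2302 UMIs, or 74.2% of the E11.5 total.

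**Figure D5:**
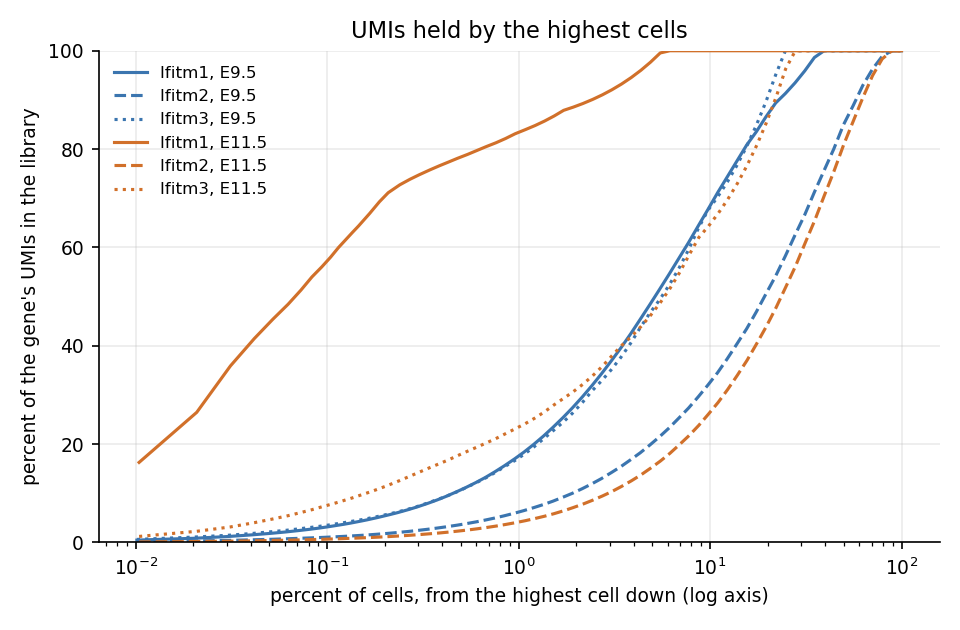
Percent of each gene's UMIs in a library (y) held by the given percent of cells, counted from the highest cell down (x, log axis), at E9.5 (blue) and E11.5 (orange). The E11.5 curve of Ifitm1 stands apart, with 50% of its UMIs in 0.0730% of cells.

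These high cells were described by the genes most raised in them over the cells of their class with 0 UMIs of that Ifitm gene. The cells were picked for their Ifitm level, so the genes are descriptions chosen after the values were seen. In the E11.5 white blood class 4 cells held 1287 Ifitm1 UMIs, up to 505 in a single cell, and were led by Cpa3 and Hdc, known from mast cells and basophils, and by Gata2. The other 77 white blood cells were at 17.4 UPM. In the E11.5 lateral plate class the 13 high cells were led by Kctd14, Lgals7, Akr1cl, Cpa1, Bst2, Wnt6 and Amhr2, the last coding for the receptor of anti-Müllerian hormone. Without those 13 the class was at 22.8 UPM. At E9.5 the lateral plate held 80 cells with at least 10 UMIs; 43 of them had the hindlimb gene Pitx1 and 58 had 2610528A11Rik, while Barx1, first by fold, was in 8, and the cells below that count were at 189 UPM. A further 7 cells at E11.5 passed no gate and were again led by Kctd14, Lgals7 and Bst2. In the E9.5 somite class the 76 high cells held 1100 of 3062 Ifitm1 UMIs and were led by Hoxc9, Hoxa9, Pcdh8, Hoxc8 and Dll3, the last a Notch ligand of the presomitic mesoderm. Among E9.5 neural progenitors 15 high cells were led by Igfbp5, Sepp1 and Foxa2, a gene of the floor plate.

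For the other members, high cells were described in 4 classes. In E11.5 neurons, 31 of 415 cells had at least 10 Ifitm2 UMIs and held 426 of the 795 UMIs, with Tlx2, Kcnmb2, Ppp1r1c and Runx3, a sensory neuron gene, among the leading genes, while 265 neurons had none. In E11.5 epithelium, 16 of 77 cells held 347 of 546 Ifitm3 UMIs, with Ripply3, Nebl, Trim29 and Penk leading. In E11.5 white blood cells, 6 of 81 cells held 142 of 260 Ifitm3 UMIs, with S100a6 leading (detected in 4 of the 6). In endothelium the few cells with at least 10 Ifitm3 UMIs, 5 in the E9.5 and 2 in the E11.5 library, had Gja4, an arterial connexin gene, among their leading genes at both stages, with Gja5 and Vwf beside it at E9.5.

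Since Ifitm1 and Ifitm3 are known germ cell genes, cells were searched for 8 germ cell genes (Dppa3, Pou5f1, Dnd1, Dazl, Ddx4, Nanos3, Tfap2c, Prdm14). At least 2 were detected in 15 cells at E9.5 and in 39 at E11.5, and 3 or more in 1 cell, at E11.5, which had 40042 UMIs and at least 5 of the genes. That cell had 31 UMIs of Ifitm1, 36 of Ifitm2 and 47 of Ifitm3, or 774 UPM [526, 1099], 899 UPM [630, 1245] and 1174 UPM [862, 1561]. Its Ifitm3 level was above that of any class, but a class level is taken over all its cells. The highest single E11.5 epithelial cell had 55 Ifitm3 UMIs. The cell with the germ cell genes passed gates of several tissues. A single germ cell gene marks no germ cell here, because Nanos3 alone was low but widespread, at 1.02 UPM in E9.5 and 4.74 UPM in E11.5 somite cells.

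The other Ifitm genes had few UMIs. Ifitm5, a gene of bone-forming cells, had 155 UMIs in the earlier library and 125 in the later, Ifitm10 had 22 and 11, Ifitm7 had 10 and 14 and Ifitm6 had 2 and 6.

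The interferon pathway around the family was followed with lists. Of 27 interferon-stimulated genes 26 were found in the files. In somite cells 14 had at least 30 UMIs, of which 2 were at least 2-fold lower at E11.5 (Xaf1 and the class I gene H2-K1) and 6 higher (Bst2, Ifi27, Ifit2, Oasl2, Stat2 and Usp18), with a median log2 ratio of 0.62 beside 0.20 over all genes. Over all genes of the somite class 5.41% were lower and 18.4% higher. Muscle had 1 lower and 4 higher of 10 (all genes 4.99% and 16.4%), and sclerotome 2 and 2 of 8 (4.53% and 15%). Lateral plate had 1 and 3 of 6 (4.25% and 13%), endothelium 0 and 4 of 7 (4.58% and 7.36%), and neural cells 2 and 3 of 9 (6.42% and 24%). In red blood cells 3 were measured, of which 1 (Ifi35) was lower, where 50.9% of all genes were. Of the list genes with few UMIs in whole libraries, Isg15 had 16 at E9.5 and 41 at E11.5, Ifit1 had 1 and 19, Irf7 had 0 and 27 and Mx1 had 5 and 1.

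Xaf1, which codes for an interferon-induced partner of the apoptosis inhibitor XIAP, had the direction of Ifitm1 in several tissues. It was 8.64 UPM at E9.5 and 1.20 UPM at E11.5 in somite (log2 -2.84 [-3.32, -2.40]), 9.61 UPM and 1.44 UPM in muscle, and 21.2 UPM and 1.21 UPM in neural cells (log2 -4.14 [-5.10, -3.32]). In endothelium, where Ifitm1 was at 0 UMIs at E11.5, Xaf1 was higher at that stage, at 5.28 UPM and 13.5 UPM. Bst2, coding for the membrane protein tetherin, was 1.08 UPM and 45.0 UPM in lateral plate, and 103 of its 117 UMIs there at E11.5 were in the 13 cells high in Ifitm1. B2m, the light chain of class I molecules, was 30.7 UPM and 42.0 UPM in somite and 691 UPM in E11.5 white blood cells.

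Of the 9 interferon receptors and kinases, 7 or 8 had 30 UMIs in somite, muscle, sclerotome, lateral plate, endothelial and neural cells, and 0 of those were 2-fold lower. In somite 3 of 8 were higher (Ifngr1, Ifngr2, Jak2; all genes 18.4%), in muscle 2 of 8 (16.4%), in sclerotome 2 of 7 (15%), in lateral plate 4 of 7 (13%), in endothelium 0 of 7 (7.36%) and in neural cells 5 of 8 (24%). In red blood cells 1 of 3 was lower, Il10rb, where 50.9% of all genes were. Ifngr2, a chain of the interferon-gamma receptor, was 10.2 UPM at E9.5 and 31.5 UPM at E11.5 in somite (log2 1.63 [1.46, 1.80]), and Jak1, the kinase that led the list by level, was 29.4 UPM and 52.1 UPM. Receptor and kinase genes were thus measured in somite cells at both stages.

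Among 14 other fusion and membrane genes, 3 of 10 were 2-fold higher in somite at E11.5 (Adam12, Cd63, Clec2d; all genes 18.4%) and 7 of 12 in muscle, including Mymk and Mymx (16.4%). In sclerotome and in endothelium 0 of 8 were higher (15% and 7.36%) and 1 was lower in each, Cdh15 and Adam9. In lateral plate 3 of 7 were higher (13%) and in neural cells 2 of 9, near the 24% of all genes. In red blood 4 of 5 were lower, where 50.9% of all genes were and the median gene was at log2 -1.02. Cd81, a tetraspanin and the leading gene of the list, was 224 UPM and 353 UPM in somite and 875 UPM and 1331 UPM in endothelium. Cd63, a tetraspanin of late endosomes, was 165 UPM and 340 UPM in somite (log2 1.04 [1.00, 1.09]).

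Genes most like each member were ranked by Pearson correlation of log2(UPM + 1) over 21 points, each a class at 1 stage, among 9464 genes. The points share libraries and depth, so r is a description. Closest to Ifitm1 were Abhd11os (r = 0.82), Rfwd3 (0.80), Gm13251 (0.80), Plac8 (0.76) and Snx5 (0.76). Ifitm2 was closest to Dusp7 (0.94), Smarca2 (0.93), Slc10a7 (0.93), Abl1 (0.92) and Cyfip1 (0.92), and Ifitm3 to Prr5l (0.89), Plp2 (0.84), Rps6ka1 (0.84), Triobp (0.83) and Zfp217 (0.82). The neighbours were less alike, with r = 0.48 between Ifitm1 and Ifitm2, 0.44 between Ifitm1 and Ifitm3 and 0.67 between Ifitm2 and Ifitm3.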

How the data were processed

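The authors deposited unnormalized UMI counts per gene and cell for 2 libraries, made per the submitters' processing notes with Cell Ranger 3.0.1 on mm10. Whether the chemistry read the 3′ or the 5′ end is not given in the sources used here. Cells with at least 200 and under 6500 genes and under 15% mitochondrial UMIs were kept, as in the study's methods. Gates needed UMIs of at least 2 or 3 marker genes (muscle, 2 UMIs; red blood, 10% globin UMIs); a cell passing gates of unrelated tissues (945 at E9.5, 417 at E11.5) entered no class. Summed UMIs were divided by the class total and multiplied by 1000000. Ratios between the libraries carry exact conditional binomial intervals, and a count of 0 was set against 3 counts. With 1 library per stage no test was run; stage, library and embryo pool cannot be told apart. The computation was tested on simulated data. Depth was 149368952 UMIs in the E9.5 library and 136655763 in the other. Scrublet (scanpy 1.11.5) called 587 of 10121 barcodes doublets at E9.5 and 0 of 10167 at E11.5, so it did not work there, and no doublets were removed from the values reported.

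Members and lists were chosen with earlier results of these data known. Named are the members, list genes with at least 100 UMIs that pass 2-fold in a class or lead their list, and the 5 genes most like each member; the Xaf1 and Bst2 comparisons with Ifitm1, the low-count list genes, the Hox split, the germ cell search and the genes leading high cells or cells of no gate were chosen after values were seen. Mymk and Mymx are listed as Tmem8c and Gm7325 and were matched by gene ID; Mx2 was not used. Alternatives changed the gates, the treatment of cells with several gates, doublets, cell filters, the denominator, cell weighting and depth. Python 3.11.15, numpy 2.4.6, scipy 1.17.1 and matplotlib 3.10.9 were used.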

Additional observations from a re-analysis of the deposited data

Results flagged for a closer look

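Ifitm3 differed in direction between tissues. Its log2 ratio of E11.5 over E9.5 was 2.03 in sclerotome, from 8.37 UPM to 34.3 UPM, and -2.18 in neural cells, from 26.0 UPM to 5.73 UPM. The intervals lay on opposite sides of 0, but each stage was 1 library and the difference between the tissues was not tested. With the cells of several gates kept, the ratios were 1.35 and -0.87, and with cells thinned to 5000 UMIs they were 1.81 and -1.68.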

How the results depend on the processing

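No paired analysis was possible because each stage was 1 library. Of the alternative settings, 2 of them chosen after seeing the data (the highest 5% of Scrublet scores left out; muscle cells with Mymk left out of those without Myog), none turned the direction of a ratio whose interval lay off 0. The log2 ratio of Ifitm1 in newly formed somite over muscle, 3.80, was 4.26 with 1 more gate gene required and 3.35 with cells of several gates kept. Ifitm3 was lower at E11.5 in 3 classes, and in 1 of 6 with cells thinned to 5000 UMIs, where the intervals of muscle and lateral plate held 0. Shares of somite cells are lowered by thinning and by a 2-UMI minimum by construction. At E9.5 and E11.5, thinned shares were 22.1% and 1.42% for Ifitm1, 69.1% and 86.0% for Ifitm2 and 5.84% and 14.7% for Ifitm3; with at least 2 UMIs they were 19.4% and 0.931%, 76.4% and 92.6%, and 2.71% and 9.99%. Keeping cells of several gates moved 10 of 19 stage ratios beyond counting error; the cause was not tested. Among them were the lateral plate ratio of Ifitm1 (-0.86) and the neural ratio of Ifitm3 (-0.87). Thinning to 5000 UMIs moved 4 of 17 ratios, and its largest change was 2.74 in log2. Requiring 1 more gate gene moved 2 of 13, and taking means over cells moved 2 of 19. Leaving globin, ribosomal and mitochondrial UMIs out of the total moved 1 of 19. Leaving out Scrublet calls, requiring at least 1000 genes or using no cell filter moved 0 of 19. Scrublet called 0 barcodes at E11.5, so leaving out its calls could not address doublets at that stage. Depth limits classes with few cells, such as endothelium at E11.5, and levels of a few UMIs.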
